A study of Homo sapiens with 8 samples.

Results

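Aminoacyl-tRNA synthetases are the enzymes that attach each amino acid to its transfer RNA. Their genes were followed in MDA-MB-231 after knockdown of the integrin α3 subunit. This established line derives from a human breast carcinoma that lacks hormone receptors and HER2 amplification. The family was taken as a list of 35 gene names, of which 19 encode cytosolic enzymes and 16 encode mitochondrial ones. GARS1 and KARS1, whose products serve both compartments, are counted with the cytosolic group. A gene was read only through array features annotated to it alone. By that rule 30 of the 35 genes had a transcript cluster, the gene-level feature, among 22011 on the array, and 34 had exon-level probesets, 721 of 287329. VARS2 had neither, because every feature naming it also names GTF2H4, and its level was not read.

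RNA came from cells stably transduced with lentivirus carrying a short hairpin RNA against α3 (α3 knockdown, n = 2 arrays) or a control hairpin (control, n = 2 arrays). All were grown under the same conditions, on tissue culture plates in serum-containing medium. Each of the 4 biological replicates was read on 1 Affymetrix Human Exon 1.0 ST array, a design with separate probesets for most exons. The gene-level and exon-level summaries of the same 4 arrays make up the 8 samples, so the exon level adds no replicates. The hairpin sequences, the number of hairpins and whether the lines are clones are not stated in the labels, and no rescue of α3 was analysed here. Loss of α3 and other effects of the hairpin or the transduced line therefore cannot be told apart.

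Each cytosolic synthetase charges tRNAs for the ribosomes of the cytosol. A separate nuclear gene usually encodes the enzyme for mitochondrial protein synthesis, whose name then ends in 2. Several cytosolic enzymes sit in a multisynthetase complex held together by the scaffold proteins AIMP1, AIMP2 and EEF1E1. Many cytosolic synthetase genes are known targets of ATF4, the transcription factor of the amino acid response, which is translated when uncharged tRNA activates the kinase GCN2.

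Values are PLIER intensities, a model-based summary of probe brightness on a linear scale. Differences are knockdown minus control on the log2(intensity + 16) scale, with a standard error (SE). A gene was called at an adjusted p under 0.05, from limma with Benjamini-Hochberg adjustment over all 13207 transcript clusters left after the dimmest 40% were removed. All 30 synthetase clusters passed that brightness filter. Median gene-level intensity was 168 and 171 on the knockdown arrays and 177 and 186.5 on the control arrays, and the median difference of all tested clusters was -0.06. It was 0.02 after quantile normalization and 0.04 after centring each array on its median. ITGA3, which encodes the α3 subunit, stood at 619 and 644 in knockdown cells, against 3480 and 3529 in control cells. All 5 mesenchymal markers fixed for this line passed the filter, while 1 of 5 luminal, 1 of 4 leukocyte and 1 of 4 fibroblast markers did. The summed luminal marker intensity was 518 and 522 in knockdown cells and 389 and 363 in control cells. Most of that gap lay in CDH1, which did not pass the filter, at 177 and 168 in knockdown cells and 25.4 and 28.8 in control cells. GATA3 was higher without being called (adjusted p = 0.212), and the mean levels of ESR1, ELF3 and GRHL2 were lower in knockdown cells. The mesenchymal sum was 14480 and 14180 against 16840 and 17010, the leukocyte sum 226 and 257 against 217 and 210, and the fibroblast sum 301 and 290 against 279 and 275. Of the mesenchymal markers AXL was called lower (adjusted p = 0.00691, limma), at 2914 and 2908 in knockdown cells and 4130 and 4217 in control cells. VIM, CAV1, CD44 and ZEB1 were not called. The part of these markers in the results was not tested. In bulk RNA, a change in the share of cells and a change in RNA per cell cannot be told apart.

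The synthetase genes did not move as 1 block. In knockdown cells CARS1, EPRS1 and KARS1 were higher and TARS2, IARS2, QARS1, CARS2 and VARS1 were lower, with changes of 1.54-fold or less. Of the 30 genes tested, 3 rose (10%), 5 fell (16.7%) and 22 did not pass, with a median difference of -0.004. Over all clusters tested 5.99% were called higher and 15.3% lower, 21.3% in all, so the share of synthetases called, 26.7%, lies near the background. Both knockdown arrays lay above both controls in 13 of the 30 genes (43.3%, against 22.3% of all clusters) and below both controls in 10 (33.3%, against 39.6%). The counts depended on scaling, as did those of all clusters. After quantile normalization 5 synthetases rose and 4 fell, beside 1354 and 1679 of all clusters. After centring 5 rose and 3 fell, beside 1496 and 1507, where the main fit over all clusters gave 791 and 2016. Leaving out 1 array leaves 1 array in a group, so such fits are given by their differences only, without calls.

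**Figure D1:**
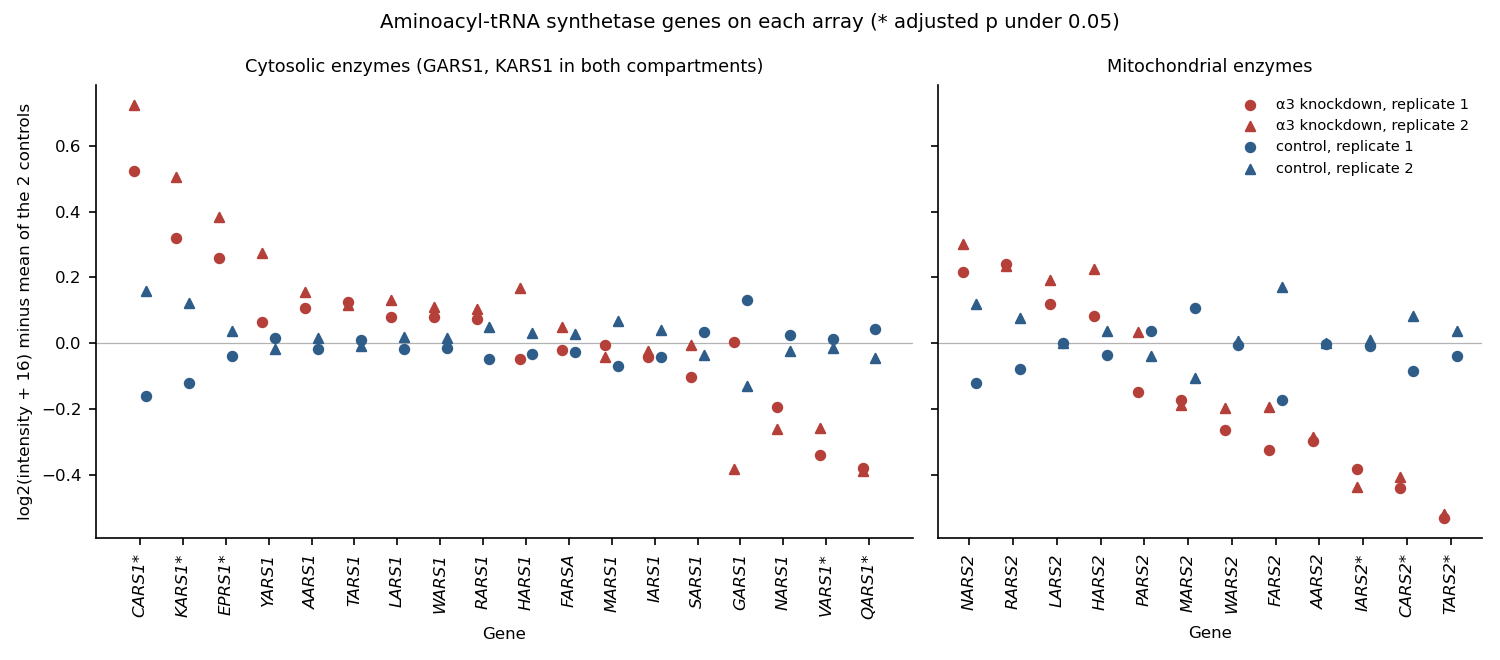
Level of each tested synthetase gene on every array, as log2(intensity + 16) minus the mean of the 2 control arrays. Red symbols are knockdown arrays and blue symbols control arrays, circles are replicate 1 and triangles replicate 2. CARS1, KARS1 and EPRS1 lie highest in knockdown cells among the cytosolic enzymes and TARS2, CARS2 and IARS2 lowest among the mitochondrial ones.

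The median difference lay above 0 in the cytosolic enzymes and below 0 in the mitochondrial ones. Of 18 cytosolic genes tested, 3 rose, 2 fell and 13 did not pass, with differences between -0.38 and 0.62 and a median of 0.07. Of 12 mitochondrial genes tested, 0 rose, 3 fell and 9 did not pass, with differences between -0.52 and 0.26 and a median of -0.20. The called shares were 16.7% higher and 11.1% lower for the cytosolic and 0% higher and 25% lower for the mitochondrial genes, beside 5.99% and 15.3% of all clusters, and at 18 and 12 genes a few calls make these shares. Both knockdown arrays lay above both controls in 9 cytosolic (50%) and 4 mitochondrial (33.3%) genes, beside 22.3% of all clusters, and below them in 3 (16.7%) and 7 (58.3%), beside 39.6%. The medians were 0.11 and -0.12 after quantile normalization and 0.17 and -0.11 after centring, and NARS2 and RARS2 were then called higher under both scalings. The difference between the compartments was not tested, since genes are not replicates. By catalytic fold, the class I enzymes had 1 rise and 4 falls among 15 tested and the class II enzymes 1 rise and 1 fall among 14, apart from EPRS1, which joins both folds. Those shares, 6.67% higher and 26.7% lower in class I and 7.14% each way in class II, stand beside the same 5.99% and 15.3%.

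CARS1 (transcript cluster 3359529) encodes the cytosolic cysteinyl-tRNA synthetase. It measured 1093 and 1257 in knockdown cells, against 674 and 845 in control cells. The groups did not overlap, and the difference of 0.62 ± 0.13 (SE), or 1.54-fold, was the largest rise among the 30 clusters (adjusted p = 0.0213, limma). The call was lost without the filter on dim features (adjusted p = 0.0553, limma). With 1 array left out the difference ran from 0.46 to 0.78.

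KARS1 (cluster 3699757) encodes the lysyl-tRNA synthetase of both compartments, a member of the multisynthetase complex. It measured 1745 and 1986 in knockdown cells, against 1280 and 1517 in control cells, which again did not overlap. The difference was 0.41 ± 0.11 (SE), with an adjusted p of 0.0461 in limma. With 1 array left out the KARS1 difference ran from 0.29 to 0.53. KARS1 no longer passed without the filter (0.0976) or the intensity trend (0.0663). EPRS1 (cluster 2456746) encodes the bifunctional glutamyl-prolyl-tRNA synthetase, the largest enzyme of the same complex. It measured 1591 and 1737 in knockdown cells and 1293 and 1364 in control cells. The difference of 0.32 ± 0.082 (SE) passed in limma (adjusted p = 0.0391), and it ran from 0.26 to 0.38 with 1 array left out. The call of EPRS1 was lost without the filter (0.0737) or the intensity trend (0.0630).

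QARS1 (cluster 2673937), the glutaminyl-tRNA synthetase of the complex, measured 1569 and 1560 in knockdown cells, against 2109 and 1984 in control cells. Its fall was -0.38 ± 0.075 (SE) (adjusted p = 0.0177, limma), a call lost after centring (0.0506). With 1 array left out its difference ran from -0.43 to -0.34. Of the 7 complex enzymes tested, 2 rose (28.6%, beside 5.99% of all clusters), 1 fell (14.3%, beside 15.3%) and 4 did not pass, with a median difference of 0.09. Shares over 7 genes rest on 1 or 2 calls. The other 4 lay close to 0. LARS1 differed by 0.11, RARS1 by 0.09, MARS1 by -0.02 and IARS1 by -0.03, and none passed. The scaffold gene AIMP1 measured 891 and 880 in knockdown cells and 855 and 874.5 in control cells and did not pass (0.03 ± 0.074 (SE), adjusted p = 0.795).

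Among cytosolic enzymes outside the complex, VARS1 (cluster 2949380) encodes the valyl-tRNA synthetase, which instead associates with elongation factor 1. It measured 1021 and 1083 in knockdown cells and 1308 and 1285 in control cells, with no overlap. Its fall was -0.30 ± 0.076 (SE) (adjusted p = 0.0387, limma). This was the least stable call of the family. It was lost after quantile normalization (0.0612), after centring (0.103), and without the filter (0.0673) or the intensity trend (0.0629). With 1 array left out the difference of VARS1 ran from -0.34 to -0.26.

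The 3 mitochondrial genes that fell did so by similar amounts. TARS2 (cluster 2358320), the mitochondrial threonyl-tRNA synthetase, measured 392 and 395 in knockdown cells, against 557 and 589 in control cells. Its fall of 1.44-fold was the largest among the 30 transcript clusters (difference -0.52 ± 0.084 (SE), adjusted p = 0.0102, limma). IARS2 (cluster 2380991), the mitochondrial isoleucyl-tRNA synthetase, measured 1468 and 1410 in knockdown cells and 1903 and 1928 in control cells (-0.41 ± 0.073 (SE), adjusted p = 0.0138, limma). CARS2 (cluster 3525538), the mitochondrial cysteinyl-tRNA synthetase, measured 522.5 and 535 in knockdown cells and 673 and 757 in control cells (-0.42 ± 0.091 (SE), adjusted p = 0.0240, limma). In all of them both knockdown arrays lay below both controls. With 1 array left out the differences ran from -0.56 to -0.48 for TARS2, -0.44 to -0.38 for IARS2 and -0.50 to -0.34 for CARS2. The call of CARS2 was lost without the filter (adjusted p = 0.0502, limma). Under both scalings TARS2, IARS2 and CARS2 remained called.

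Of the 22 genes that did not pass, 13 were cytosolic, and apart from NARS1 their differences lay between -0.19 and 0.17. NARS1, the cytosolic asparaginyl-tRNA synthetase, measured 2153 and 2054 in knockdown cells and 2503 and 2421 in control cells (-0.23 ± 0.074 (SE), adjusted p = 0.0799). WARS1, the tryptophanyl-tRNA synthetase known to be induced by interferon, measured 1963 and 2003 against 1835 and 1875 and did not pass (0.10 ± 0.072 (SE), adjusted p = 0.394). YARS1, the tyrosyl-tRNA synthetase, measured 2159 and 2495 in knockdown cells and 2086 and 2038 in control cells (0.17 ± 0.092 (SE), adjusted p = 0.244). FARSA, a subunit of the phenylalanyl enzyme, differed by 0.02, with a 95% interval from -0.17 to 0.20. GARS1, which charges glycine, was the least precise of the cytosolic genes, at 1115 and 849 in knockdown cells and 1219 and 1014 in control cells, and its interval ran from -0.55 to 0.18. That interval is wide enough to hold the fall measured in VARS1.

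Among the mitochondrial genes that did not pass, AARS2 measured 182.5 and 184 in knockdown cells, against 227.5 and 228 in control cells (-0.29 ± 0.099 (SE), adjusted p = 0.0874). WARS2 measured 359 and 377 against 432 and 436 (-0.23 ± 0.086 (SE), adjusted p = 0.111). NARS2 and RARS2, the mitochondrial enzymes for asparagine and arginine, lay on the other side. NARS2 measured 684 and 726 in knockdown cells and 538 and 639 in control cells (0.26 ± 0.11 (SE), adjusted p = 0.137), and RARS2 722 and 719 against 576 and 643 (0.24 ± 0.088 (SE), adjusted p = 0.108). After quantile normalization their adjusted p was 0.0351 for NARS2 and 0.0311 for RARS2, and after centring 0.0347 and 0.0261. Without control replicate 2 the difference of NARS2 was 0.38, and without control replicate 1 it was 0.14. FARS2, MARS2 and PARS2 differed by -0.26, -0.18 and -0.06, and LARS2 and HARS2 by 0.16 and 0.15.

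Setting the cytosolic against the mitochondrial enzyme for the same amino acid within an array removes a shift that is equal for all genes. It does not remove a shift that varies with brightness, and the cytosolic gene was the brighter in every pair. After quantile normalization, for example, the difference of AARS1 moved from 0.13 to 0.16 and that of AARS2 from -0.29 to -0.20. The ratios were not recomputed under that scaling. Of 12 pairs with both genes tested, the cytosolic enzyme's difference was above the mitochondrial one's in 8 and under it in 4. The widest gap was for cysteine, since CARS1 rose and CARS2 fell. The log2 ratio of CARS1 to CARS2 was 1.04 and 1.21 in knockdown cells and 0.003 and 0.16 in control cells, a gap of 1.05 ± 0.11 (SE from the spread of these ratios within groups, n = 2 each). The threonine pair, TARS1 to TARS2, had a ratio of 3.18 and 3.16 in knockdown cells and 2.58 and 2.48 in control cells, a gap of 0.64 ± 0.049 (SE). These ratios compare different probes, so only their change between arrays carries information. Alanine (0.42), isoleucine (0.38), proline (0.38 for EPRS1 and PARS2), tryptophan (0.33) and phenylalanine (0.27 ± 0.15 (SE)) had smaller gaps of the same sign. The methionine gap had that sign too, at 0.16 ± 0.17 (SE), but its ratios overlapped between the groups. Asparagine went the other way, with the NARS1 to NARS2 ratio at 1.63 and 1.48 in knockdown cells and 2.19 and 1.90 in control cells (-0.48 ± 0.16 (SE)). Arginine (-0.15), histidine (-0.09) and leucine (-0.05) were also negative. With 2 arrays a group, a permutation test of a ratio cannot fall under p = 0.333, and these gaps were not tested.

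**Figure D2:**
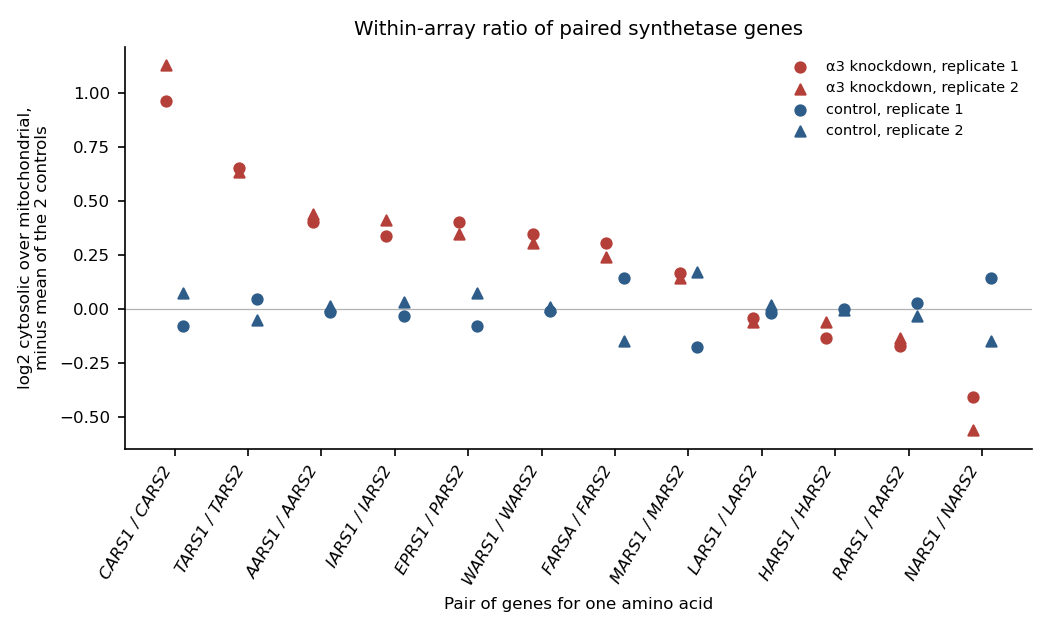
Within-array log2 ratio of the cytosolic to the mitochondrial gene for 1 amino acid, minus the mean ratio of the 2 control arrays. Red symbols are knockdown arrays and blue symbols control arrays, circles are replicate 1 and triangles replicate 2. The gap is 1.05 for cysteine at the left and -0.48 for asparagine at the right.

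The exon-level probesets, read from the same arrays, showed whether a change ran along the whole gene. Of 721 synthetase probesets 672 passed the filter. Among these, 5 were called higher (0.744%, against 1.33% of the 172398 probesets tested) and 12 lower (1.79%, against 3.25%). Both knockdown arrays lay above both controls in 26.2% of the synthetase probesets and below them in 29%, where all tested probesets gave 19.4% and 31.3%. In the cytosolic genes these shares were 32.6% above and 19.9% below, and in the mitochondrial genes 14.6% above and 45.4% below. Probesets of 1 gene measure the same transcripts and are not independent. The probeset counts moved with scaling, to 17 higher and 3 lower after centring.

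In CARS1 all 24 tested probesets had a positive difference, from 0.34 to 1.21, and 21 had both knockdown arrays above both controls. KARS1 had 19 of 19 positive, with a median of 0.40, and EPRS1 29 of 30, with a median of 0.33. In the genes that fell, QARS1 had 30 of 31 probesets negative, VARS1 30 of 32, IARS2 30 of 31, CARS2 22 of 22 and TARS2 21 of 23. These genes were picked by their calls on the same arrays, so the shared signs are no separate evidence for the changes. CARS1 probeset 3359556 measured 2015 and 2514 in knockdown cells and 1231 and 1442 in control cells, and QARS1 probeset 2673975 measured 806.5 and 845.5 against 1446 and 1318. Both are among the called probesets, which numbered 4 in CARS1, 5 in QARS1, 3 in IARS2, 2 in TARS2 and 1 each in VARS1, SARS2 and LARS1.

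**Figure D3:**
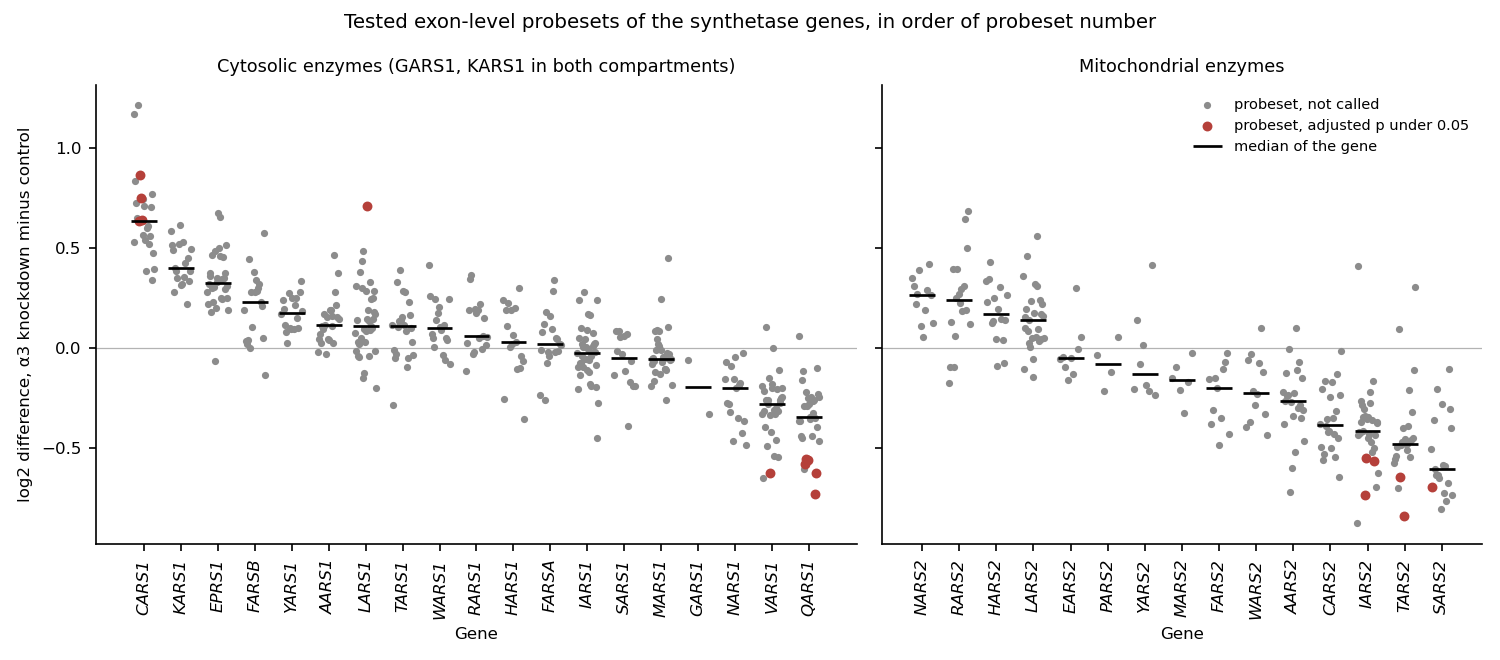
Log2 difference, knockdown minus control, of every tested probeset of 34 synthetase genes, in order of probeset number within a gene, with the gene's median as a black bar. Red points passed at an adjusted p under 0.05. CARS1 probesets run from 0.34 to 1.21, and SARS2, at the right, has a median of -0.60.

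The exon level also read 4 genes without a transcript cluster of their own. SARS2, the mitochondrial seryl-tRNA synthetase, whose gene-level clusters are shared with MRPS12 or FBXO17, had all 19 tested probesets negative and 17 with both knockdown arrays below both controls. Its median probeset level was 319 and 319 in knockdown cells, against 508 and 483 in control cells. Fitted over all genes as the per-array median of their probesets, where 2.12% of 15106 genes were called higher and 5.75% lower, SARS2 differed by -0.61 ± 0.13 (SE) (adjusted p = 0.0304, limma). In that fit 2 synthetases were called, SARS2 and QARS1 (-0.54 ± 0.10 (SE), adjusted p = 0.0203), both lower. The fit of medians was run in the main setting alone. The SARS2 call was therefore not tried under another filter, scaling or set of arrays. CARS1 missed the threshold there (0.60 ± 0.16 (SE), adjusted p = 0.0585), as did the other genes called at the gene level apart from QARS1. SARS1, the cytosolic serine enzyme, measured 4089 and 4370 in knockdown cells and 4492 and 4284 in control cells at the gene level and did not pass (-0.05 ± 0.080 (SE), adjusted p = 0.692). FARSB, the partner subunit of FARSA, had 17 of 19 probesets positive and a median of 0.23. YARS2 had a median of -0.13 over 8 probesets and EARS2 of -0.05 over 9, and in the fit of medians FARSB, YARS2 and EARS2 did not pass.

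To test exon usage, every probeset was set against the average of the remaining ones in that gene. None of 670 synthetase probesets passed in limma (0), where 0.0444% of 155392 did over all genes, and 7 (1.04%) had an unadjusted p under 0.05, where 6.06% did over all genes. Examples are 2 probesets chosen after their values were seen. TARS2 probeset 2358359 measured 5513 and 5515 in knockdown cells and 4459 and 4471 in control cells, above the controls while the gene fell (relative difference 0.76 ± 0.18 (SE), adjusted p = 0.436). It is far brighter than the TARS2 transcript cluster, at 392 and 395 in knockdown cells and 557 and 589 in control cells. Whether its signal comes from TARS2 alone was not checked. LARS1 probeset 2879960 measured 2831 and 2656 against 1638 and 1703, in a gene that did not pass (relative difference 0.59 ± 0.15 (SE), adjusted p = 0.482).

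The promoters were read for a feature that the list of genes did not use. RefSeq start-site windows (GRCh38.p14, 250 bases before to 50 after the start) were found for 30 of the 35 genes, in 39 windows. The C/EBP-ATF response element (CARE), the site through which ATF4 acts, was searched as TGATGNAA on both strands, a search chosen with the expression values known. It was found in 8 of the 30 genes (26.7%), against 4.46% of 27305 genes with such windows. The stricter TGATGCAA was found in 6 (20%), against 1.08% of all genes. Of the 8, 7 are among the 16 cytosolic genes with a window and 1 among the 14 mitochondrial ones. The 8 matches are shown in 30-base stretches on the strand of the gene, with the matched letters in capitals, because they are what these synthetase genes share in sequence.
AARS1, chr16:70289675-70289704, minus strand: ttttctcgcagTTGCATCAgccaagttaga
CARS1, chr11:3057407-3057436, minus strand: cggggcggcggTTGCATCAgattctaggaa
GARS1, chr7:30594834-30594863, plus strand: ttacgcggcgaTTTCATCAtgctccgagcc
IARS1, chr9:92293692-92293721, minus strand: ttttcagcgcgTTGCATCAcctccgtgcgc
MARS1, chr12:57488053-57488082, plus strand: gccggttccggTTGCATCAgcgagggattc
NARS1, chr18:57621804-57621833, minus strand: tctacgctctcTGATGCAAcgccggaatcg
TARS1, chr5:33440956-33440985, plus strand: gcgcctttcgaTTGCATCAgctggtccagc
YARS2, chr12:32756076-32756105, minus strand: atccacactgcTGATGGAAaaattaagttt

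The genes with these letters did not move together. Of the 7 with a transcript cluster, CARS1 rose, none fell and 6 did not pass, and their differences ran from -0.23 in NARS1 to 0.62 in CARS1 with a median of -0.02. AARS1 measured 2042 and 2110 in knockdown cells and 1873 and 1915 in control cells (0.13 ± 0.072 (SE)), and TARS1 3685 and 3663 against 3399 and 3357 (0.12 ± 0.072 (SE)). IARS1, at 3180 and 3220 against 3176 and 3367, and MARS1, at 2438 and 2381 against 2336 and 2567, overlapped between the groups. KARS1 and EPRS1, which rose, had no match in their windows. A match is a run of letters and not a measured binding site.

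Another 5 motifs were searched on both strands, also with the expression values known. The E-box CACGTG was found in 4 of the 30 genes (13.3%, against 8.77% of all genes), the NRF1 motif in 6 (20%, against 6.98%), the interferon-stimulated response element in 2 (6.67%, against 4.38%), 1 of which was WARS1, and the ETS letters CCGGAAGT in 8 (26.7%, against 4.95%). CCAAT was found in 16 (53.3%, against 39.7%), among them 4 of 4 called-lower and 1 of 3 called-higher genes with a window. Most of the 16, with AARS1, NARS1, RARS2 and WARS2 among them, were not called at the gene level. Any link between these letters and the calls was not tested. The box in IARS2 lies 185 bases before its start. The windows listed for CARS2 start inside its gene span in RefSeq. CARS2 has such boxes 76 and 93 bases before a listed start, and SARS2, lower on exon-level medians, has them at 28 and 62. As examples, the 100 bases before the start of QARS1 and TARS2, which hold 2 boxes each, are shown with the CCAAT letters of either strand in capitals.
QARS1, chr3:49104758-49104857, minus strand: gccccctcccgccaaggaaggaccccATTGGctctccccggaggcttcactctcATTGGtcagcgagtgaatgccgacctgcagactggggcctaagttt
TARS2, chr1:150487319-150487418, plus strand: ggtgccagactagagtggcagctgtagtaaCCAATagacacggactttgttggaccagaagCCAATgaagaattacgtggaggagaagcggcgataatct

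HARS1 and HARS2, the histidine enzymes of the cytosol and the mitochondria, are neighbours read in opposite directions. Their starts are 84 bases apart, and that stretch is shown on the HARS2 strand because both genes begin from it, with its ETS letters in capitals.
HARS2, chr5:140691371-140691454, plus strand: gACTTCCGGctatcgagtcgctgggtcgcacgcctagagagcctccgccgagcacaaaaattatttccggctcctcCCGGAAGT
HARS1 measured 1208 and 1405 in knockdown cells and 1221 and 1278 in control cells, and HARS2 measured 483 and 535 against 443.5 and 467. Neither passed (0.06 ± 0.096 (SE), adjusted p = 0.712 and 0.15 ± 0.092 (SE), adjusted p = 0.286).

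**Figure D4:**
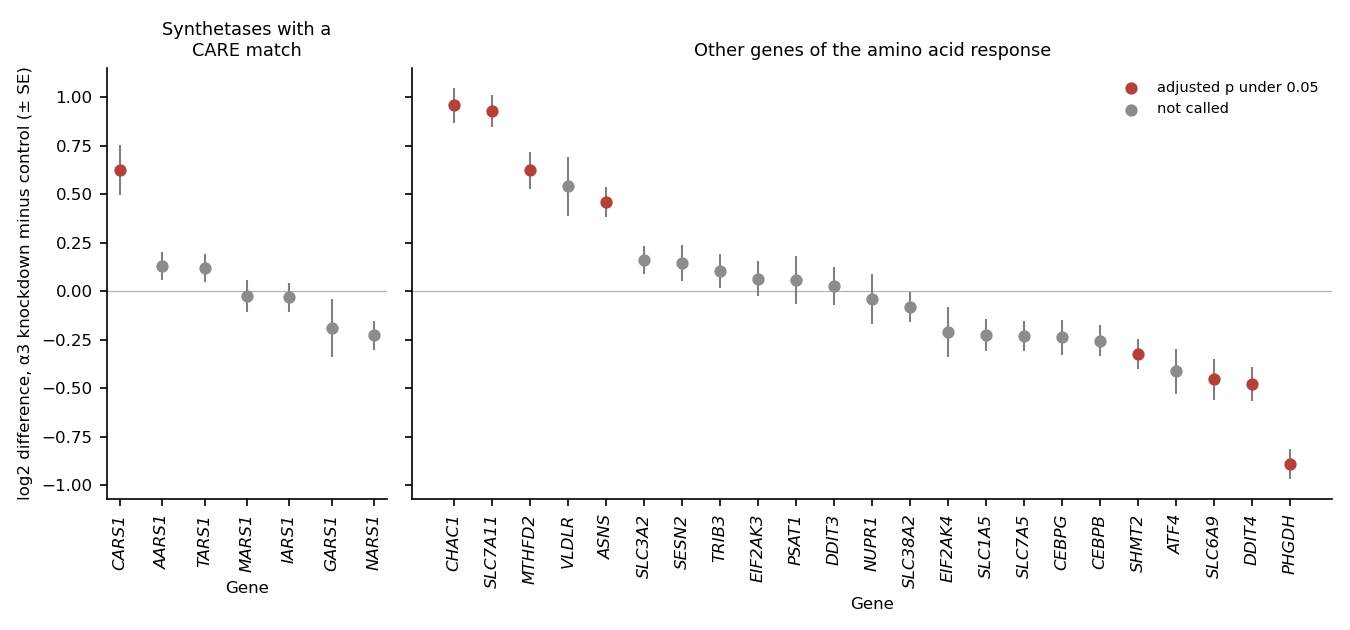
Log2 difference, knockdown minus control, with its SE, for the 7 tested synthetase genes with a CARE match and for 23 other genes of the amino acid response. Red points passed at an adjusted p under 0.05. CARS1 is the called point among the synthetases, and the other genes run from 0.96 for CHAC1 to -0.89 for PHGDH.

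Of 26 listed genes of the amino acid response 23 were tested, and 4 rose, 4 fell and 15 did not pass, with a median difference of -0.04. The shares were 17.4% each way, beside 5.99% of all clusters higher and 15.3% lower, so the share lower lies near the background. SLC7A11, the cystine importer, measured 1373 and 1289 in knockdown cells and 663 and 719 in control cells (0.93 ± 0.084 (SE), adjusted p = 0.00227, limma). CHAC1, which degrades glutathione, rose to 789 and 884, against 417 and 426.5 (adjusted p = 0.00260), and MTHFD2, a mitochondrial folate enzyme, to 1872 and 1736, against 1092 and 1242 (adjusted p = 0.00824). PHGDH, the first enzyme of serine synthesis, fell to 737 and 731.5, against 1429 and 1323 (adjusted p = 0.00218). DDIT4, SLC6A9, SHMT2, ASNS and ATF4 are named after their values were seen. DDIT4, an inhibitor of mTORC1 signalling, fell to 903 and 976, against 1252 and 1380 (adjusted p = 0.0150). Its difference ran from -0.55 to -0.41 with 1 array left out. SLC6A9, a glycine transporter, fell to 181 and 183, against 268 and 243 (adjusted p = 0.0294). Its call was lost after quantile normalization (0.0651), after centring (0.0575) and without the filter (0.0533). With 1 array left out the SLC6A9 difference ran from -0.52 to -0.39. SHMT2, the mitochondrial serine hydroxymethyltransferase, fell to 3079 and 2982, against 3669 and 3927 (adjusted p = 0.0329). That call was lost after centring (0.0704) and without the filter (0.0600) or trend (0.0542). With 1 array left out the SHMT2 difference ran from -0.37 to -0.27. ASNS, the asparagine synthetase and a standard ATF4 target, rose to 979 and 1011, against 738 and 698 (adjusted p = 0.0119). Its difference ran from 0.42 to 0.50 with 1 array left out. The ATF4 transcript measured 267 and 323.5 in knockdown cells and 391 and 401 in control cells (adjusted p = 0.0508), and with the dimmest 60% left out its adjusted p was 0.0445. ATF4 is regulated mainly by translation, which these arrays do not read.

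Of 15 genes for tRNA supply and editing, 11 were tested, and 0 rose, 3 fell (27.3%, beside 15.3% of all clusters) and 8 did not pass. SEPHS1, of the selenophosphate synthetase family, fell to 582 and 517.5, against 752 and 771 (adjusted p = 0.0179). AARSD1, which clears mischarged alanine tRNA, fell to 870 and 903, against 1070 and 1100 (adjusted p = 0.0417), and DTD1, a D-aminoacyl-tRNA deacylase, to 1946 and 1987, against 2312 and 2495 (adjusted p = 0.0463). The calls of AARSD1 and DTD1 were lost after quantile normalization (0.0639 and 0.0511) and centring (0.0952 and 0.0971). MAF1, a repressor of RNA polymerase III, did not pass (adjusted p = 0.0932). With 1 array left out the differences ran from -0.54 to -0.38 for SEPHS1, -0.31 to -0.26 for AARSD1 and -0.34 to -0.23 for DTD1.

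Of 14 mitochondrial translation factors, 11 were tested, and 1 rose (9.09%, beside 5.99% of all clusters), 0 fell (beside 15.3%) and 10 did not pass, with a median difference of 0.03. MTIF2, the mitochondrial initiation factor, rose to 760 and 856, against 624 and 630 (0.36 ± 0.090 (SE), adjusted p = 0.0374, limma). Its call was lost without the filter (0.0717) or the trend (0.0535). With 1 array left out the MTIF2 difference ran from 0.27 to 0.44. MTRFR, GATC and GATB differed by 0.48, -0.15 and 0.19 and did not pass. MTRFR passed after quantile normalization (0.0345) and after centring (0.0453). Its difference was 0.73 without control replicate 2 and 0.22 without control replicate 1. Of 7 cytosolic elongation genes 3 were tested. EEF1A2 is an isoform of the factor that brings charged tRNA to the ribosome. It measured 476 and 535 in knockdown cells and 121 and 149 in control cells (1.79 ± 0.13 (SE), adjusted p = 0.00116). Its sequence is close to that of EEF1A1. Whether the signal comes from EEF1A2 alone was not checked, so this call is uncertain. EEF2K, the kinase that restrains elongation factor 2, measured 148 and 164 against 194 and 247 (adjusted p = 0.0710), and EEF1D did not pass. Without control replicate 1 the difference of EEF2K was -0.61, and without control replicate 2 it was -0.29.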

How the data were processed

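Per the labels, the authors made PLIER intensities (linear scale) in Affymetrix Expression Console, as core-gene and core-exon analyses. The series text instead credits Affymetrix's Exon Array Computational Tool. Neither source gives a version, a background step or how arrays were scaled to each other, and the deposited scaling was kept. Features were named through the platform annotation, with symbols updated through RefSeq (GRCh38.p14). Gene-level features with 1 symbol numbered 14432, with several 2408 and with none 5171, and members were read from features with 1 symbol. Groups come from the sample titles.

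An offset of 16 was added before taking log2, and the 40% of features with the lowest mean were removed. The knockdown effect was fitted with limma 3.58.1 (R 4.3.3, eBayes with an intensity trend and no covariate, which leaves 2 residual degrees of freedom), with two-sided p adjusted by Benjamini-Hochberg over all features of a level. Exon usage was tested in genes with at least 3 tested probesets. The gene-level, exon-level and exon-usage fits were tried on simulated data, and the fit of probeset medians was not. Plots used matplotlib 3.10.9.

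The members and lists were chosen with earlier results of these data known. All members are accounted for, called members in full. From other lists, up to 4 genes with the smallest p are named. Alternatives were another offset, filter, variance model or normalization, a replicate block, each array left out, and exon-level medians. Scanner files were not used here. Precision is limited by the number of arrays, 4.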

Additional observations from a re-analysis of the deposited data

How the results depend on the processing

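No call of a synthetase gene changed its direction in any setting tried. Of all tested clusters, 791 were higher and 2016 lower. The number higher was 485 without the filter, 1354 after quantile normalization, 1496 after centring and 1324 with a replicate block, and 166 to 909 with 1 array left out, and the number lower was then 632 to 1906. The number lower was 1679 after quantile normalization and 1507 after centring. The block left the synthetase calls at the gene level at 3 higher and 5 lower. With it EEF2K (0.0157), MTRFR (0.0144) and ATF4 (0.0158) passed. The titles' numbers are not stated to pair cultures. Deviations of same-numbered arrays correlated at r = 0.19 over clusters, with 2 numbers. Synthetases higher numbered 3 in the main setting, 0 without the filter and 1 without the intensity trend. They numbered 5 after quantile normalization or centring and 0 on exon-level medians. Synthetases lower numbered 5, with 4 without the intensity trend or after quantile normalization and 3 without the filter or after centring. On exon-level medians 2 were lower, QARS1 and SARS2, and SARS2 has no transcript cluster of its own. Among cytosolic enzymes, 3 were higher, 0 without the filter or on exon-level medians, and 1 without the trend. Cytosolic enzymes lower numbered 2, 1 without the filter, the trend, after quantile normalization or on exon-level medians, and 0 after centring. Leaving out GARS1 and KARS1 gave 2 higher and 2 lower, with the same median. Mitochondrial enzymes higher numbered 0, and 2 after quantile normalization or centring. Those lower numbered 3, and 2 without the filter. On exon-level medians 1 was lower, SARS2, which has no transcript cluster of its own, while TARS2, IARS2 and CARS2 did not pass. The cytosolic median difference was 0.07 in the main setting, 0.11 after quantile normalization, 0.17 after centring and 0.034 to 0.107 with 1 array left out. The mitochondrial median was -0.20, -0.12 after quantile normalization, -0.11 after centring, -0.16 on exon-level medians and -0.22 to -0.15 with 1 array left out. Member probesets higher numbered 5, 0 without the filter or the trend, 9 with the lower 60% left out, 15 after quantile normalization, 17 after centring, 59 with the block and 1 to 14 with 1 array left out. Those lower numbered 12, 0 without the filter or the trend, 3 after centring, 76 with the block and 0 to 4 with 1 array left out. Probesets of unequal exon change numbered 0 in every setting. The cause of these shifts was not tested.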
